A study of Homo sapiens with 16 samples.

Results

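The 10 genes described here make prostanoids, which are lipid mediators built from arachidonate, or encode the receptors that bind them: PLA2G4A, PTGS1, PTGS2, PTGES, PTGES2, PTGIS, PTGER2, PTGER4, PTGFR and PTGIR. They were chosen by gene name around PTGIS, whose higher level under estradiol (E2) had already been seen in these counts, and which other values were in view at that time is not recorded. PTGIS is therefore given as a description, with no test, in every comparison with vehicle and in every interaction of E2 with a drug, and members are counted there over the other 9 genes. Its other comparisons use neither vehicle nor E2 alone and were tested. They may still rest on values seen when PTGIS was chosen, and their p-values carry that limit. The 10 genes belong to the 25370 genes of the deposited count table, and all 10 were among the 16004 genes kept by a filter on low counts.

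The counts come from 16 RNA-seq libraries of HMC3 cells, an immortalised clone of human microglia. Treatment lasted 24 h, in medium with neither serum nor phenol red. It followed 24 h without serum in RPMI and, before that, 24 h on serum stripped of steroids with charcoal, in EMEM. There were 8 conditions with 2 libraries each: vehicle, 0.1 nM E2, 3 compounds at 400 nM, and each compound together with E2. The compounds were ketamine and a pair of its hydroxynorketamine (HNK) metabolites, (2S,6S)-HNK and (2R,6R)-HNK, which are mirror-image stereoisomers. The study asked how ketamine and these metabolites, with and without estrogen, alter gene expression in microglia. It is not stated whether replicates were grown as separate cultures, so the p-values measure only the spread between these samples. Library totals ran from 55300614 to 81646165 counts. In RNA from a whole culture, a change in the share of cells that express a gene and a change in the RNA per cell cannot be told apart.

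Of 12 microglial markers, 8 had a median count under 10, among them P2RY12, TMEM119, CX3CR1, AIF1 and PTPRC, and C1QA had 0 counts in each library, which allows up to 0.0350 to 0.0547 CPM (3 counts, counting error only). CPM is the usual unit of counts scaled to library size, here after TMM scaling. The 8 fibroblast markers summed to between 18395 and 23001 CPM, led by the matrix gene FN1, although COL3A1, DCN and LUM were near 0. Astrocyte markers summed to between 5.88 and 11 CPM, led by ALDH1L1. Endothelial markers reached 1.46 to 3.43 CPM, led by VWF, and neuronal markers 1.63 to 3.30 CPM, led by SNAP25. These 8 microglial markers were thus at or near 0, and the samples are called HMC3 cells here.

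The pathway begins when cytosolic phospholipase A2, the product of PLA2G4A, frees arachidonate from membrane lipids. The cyclooxygenases encoded by PTGS1 (COX-1) and PTGS2 (COX-2) convert it into prostaglandin H2, and terminal synthases turn that intermediate into each prostanoid: PTGES and PTGES2 make prostaglandin E2 (PGE2), and PTGIS makes prostacyclin. PGE2 acts on the receptors EP2 (PTGER2) and EP4 (PTGER4), prostacyclin on IP (PTGIR), which all raise cAMP, and prostaglandin F2-alpha on FP (PTGFR), which raises calcium. In microglia COX-1 is regarded as the constitutive enzyme and COX-2 as the form induced by inflammatory stimuli.

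Levels were compared between genes only per kb, with the length of each gene's canonical transcript. PTGES2 stood far above the rest at a mean of 69.8 CPM per kb over the 16 libraries. PTGER2 followed with 2.08, PTGIS with 1.54, PTGS1 with 1.16 and PTGER4 with 1.04 CPM per kb, and PTGES had 0.476 CPM per kb. The remaining genes were scarce: PTGIR had 0.179, PTGFR 0.158, PLA2G4A 0.0933 and PTGS2 0.0239 CPM per kb. Per kb of all annotated exons of a gene, PTGES2 was at 18.3 and still far above the rest, while the order of PTGIR (0.106) and PTGFR (0.149), and of PTGS1 and PTGER4, turned over. PTGS2 gave 119 counts over all 16 libraries, and 4 libraries reached the 0.16 CPM that the filter asked for, so the gene passed only through libraries in which it was high. COX-2 message was thus close to the detection limit in every condition, whereas the constitutive COX-1 message was readily counted.

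**Figure D1:**
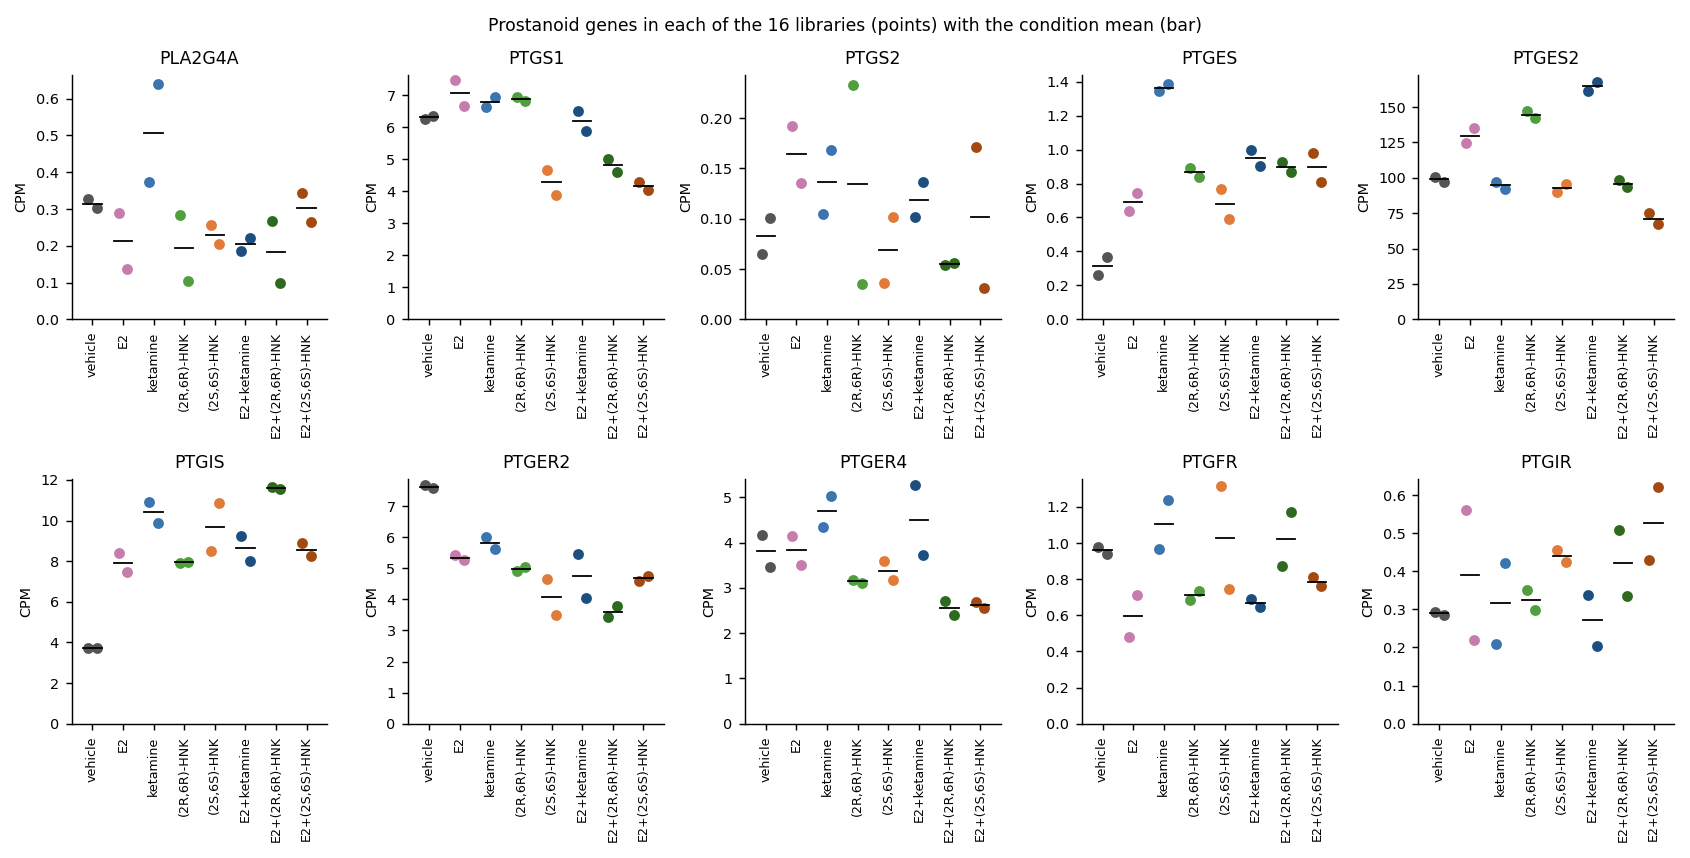
Level of each of the 10 genes in CPM (vertical axis) in the 8 conditions (horizontal axis), with a point for each of the 2 libraries and a bar at their mean. PTGES and PTGIS lie above both vehicle libraries in 14 of 14 treated libraries, PTGER2 lies below both in 14 of 14, and PTGS2 points scatter between 0.0311 and 0.233 CPM. How many of all tested genes separate from vehicle in this way was not counted, and PTGIS was chosen for its higher level under E2.

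Each treatment was first compared with vehicle, which asks what each agent or pair of agents does to these genes on its own. A gene was called where edgeR's quasi-likelihood test gave an adjusted p under 0.05 after Benjamini-Hochberg adjustment over the 16004 genes. An exact permutation test of 2 libraries against 2 cannot give a p under 0.333, so each p comes from a fit that pools the spread of all 8 conditions. PTGES, the inducible PGE2 synthase, was higher in all 7 treatments, and PTGER2, the EP2 receptor, was lower in all 7. How many of all genes were called in the same direction in all 7 was not counted. Genes of the lists below did so too, so these runs are not read as particular to the members. With E2, PTGES and PTGES2 were higher and PTGER2 lower, which is 2 and 1 of 9 members, beside 29.9% of all genes higher and 32.7% lower. Ketamine gave 1 member higher, PTGES, and 1 lower, PTGER2, beside 26.8% and 32.5% of all genes. The next treatment, (2R,6R)-HNK, gave 2 higher, PTGES and PTGES2, and 1 lower, PTGER2, beside 31.7% and 34.9%. With (2S,6S)-HNK PTGES was higher and both PTGS1 and PTGER2 were lower, beside 32.1% of all genes higher and 35.8% lower. Before the correction for GC and length described below, the share of members called in these 4 treatments was below that of all genes in both directions. After it, 2 of 9 were higher with (2R,6R)-HNK beside 20.3% of all genes, and 3 of 9 were lower with (2S,6S)-HNK beside 31.5%, which puts the members slightly above.

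E2+ketamine raised PTGES and PTGES2 and lowered PTGER2, beside 34.3% of all genes higher and 37.4% lower. E2+(2R,6R)-HNK raised PTGES and lowered 3 members, PTGS1, PTGER2 and PTGER4, beside 33.4% and 36.3%. E2+(2S,6S)-HNK raised PTGES and lowered 4 members, PTGS1, PTGES2, PTGER2 and PTGER4, beside 24% of all genes higher and 35.7% lower. None of these counts is a result about the members as a group. Upper-quartile scaling moved the split of all genes to 33.7% higher and 26.9% lower for ketamine and to 32% and 27% for E2+(2S,6S)-HNK, where it shifted the median of all genes by 0.10 on the log2 scale. No called member changed direction under TMM, upper-quartile, RLE or DESeq2 scaling. All 7 comparisons share the 2 vehicle libraries, so their values stand side by side and are not independent of each other.

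**Figure D2:**
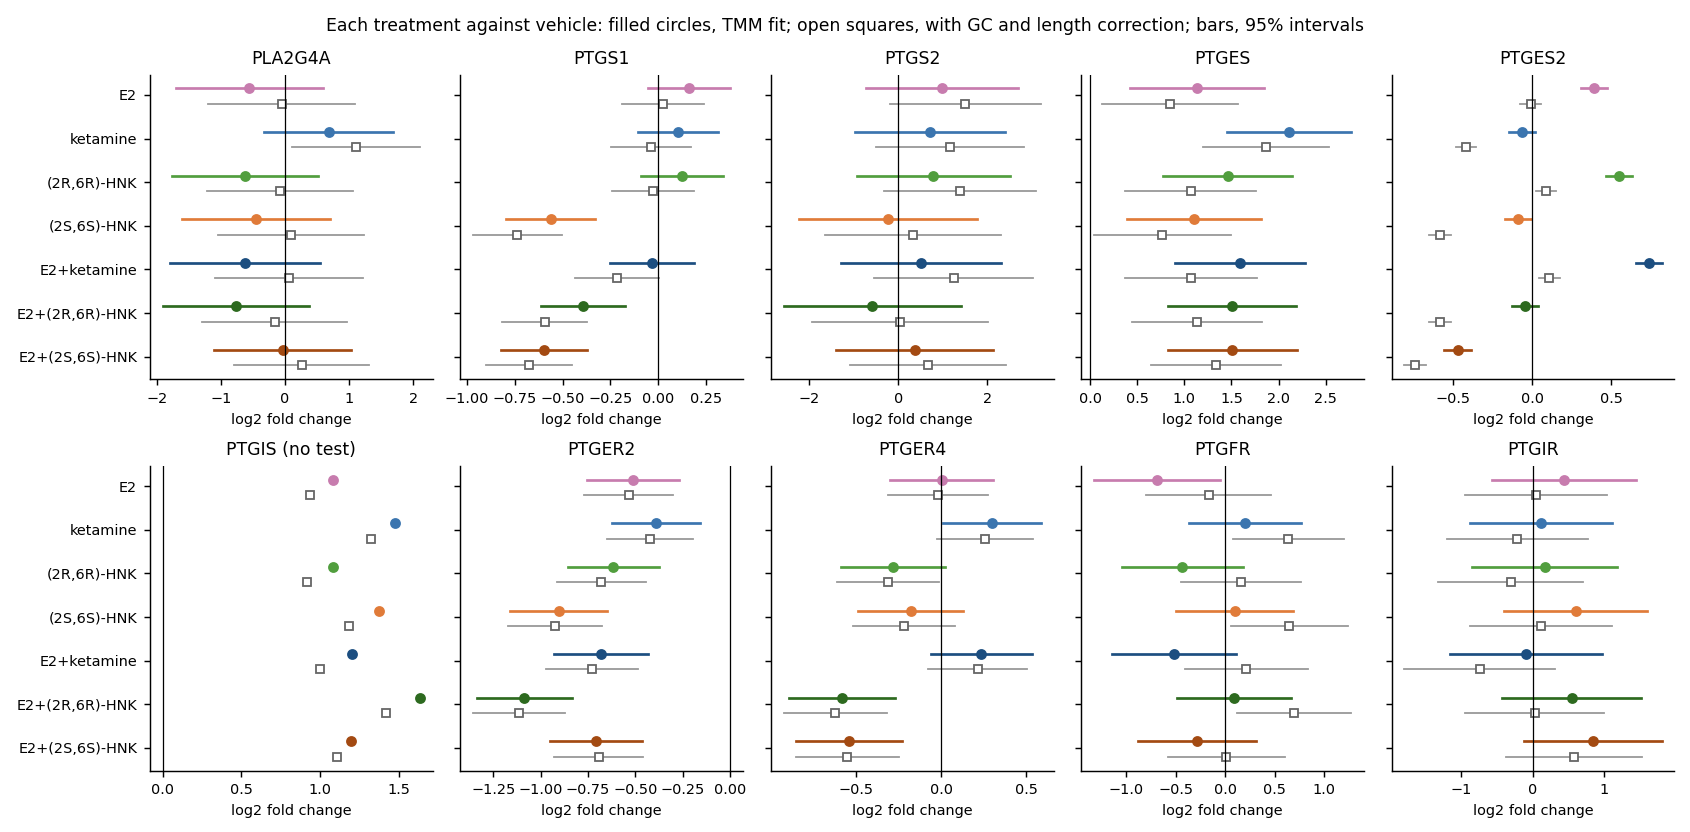
Log2 fold change of each gene against vehicle (horizontal axis) for the 7 treatments (vertical axis). Filled circles are the values after TMM scaling, open squares the values after correction for exon GC and length, and bars are 95% intervals, which PTGIS lacks because it was not tested. PTGES lies right of 0 and PTGER2 left of 0 in every treatment, and the squares of PTGES2 lie left of its circles.

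The base composition of the libraries moved with treatment. The mean exon GC of a library, weighted by counts, was 50.2% and 50.3% in vehicle and 50.9% to 52.9% in the treated libraries, with the lowest values in E2+(2S,6S)-HNK and the highest in E2+ketamine. Across genes the change against vehicle rose with exon GC: with E2+ketamine the median log2 fold change ran from -0.81 for the 2175 genes with 35 to 40% GC to 0.70 for the 1697 genes with 60 to 65%, and with E2+(2S,6S)-HNK from -0.35 to 0.23. The members span this range, from 36.9% in PTGS2, 37.8% in PTGFR and 39% in PLA2G4A to 56.9% in PTGES, 59.9% in PTGES2 and 60.3% in PTGIR. Exon GC was 51.6% in PTGIS, 51.4% in PTGS1, 49.7% in PTGER2 and 49.4% in PTGER4. Values corrected for exon GC and length are therefore given beside the calls that they alter.

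**Figure D3:**
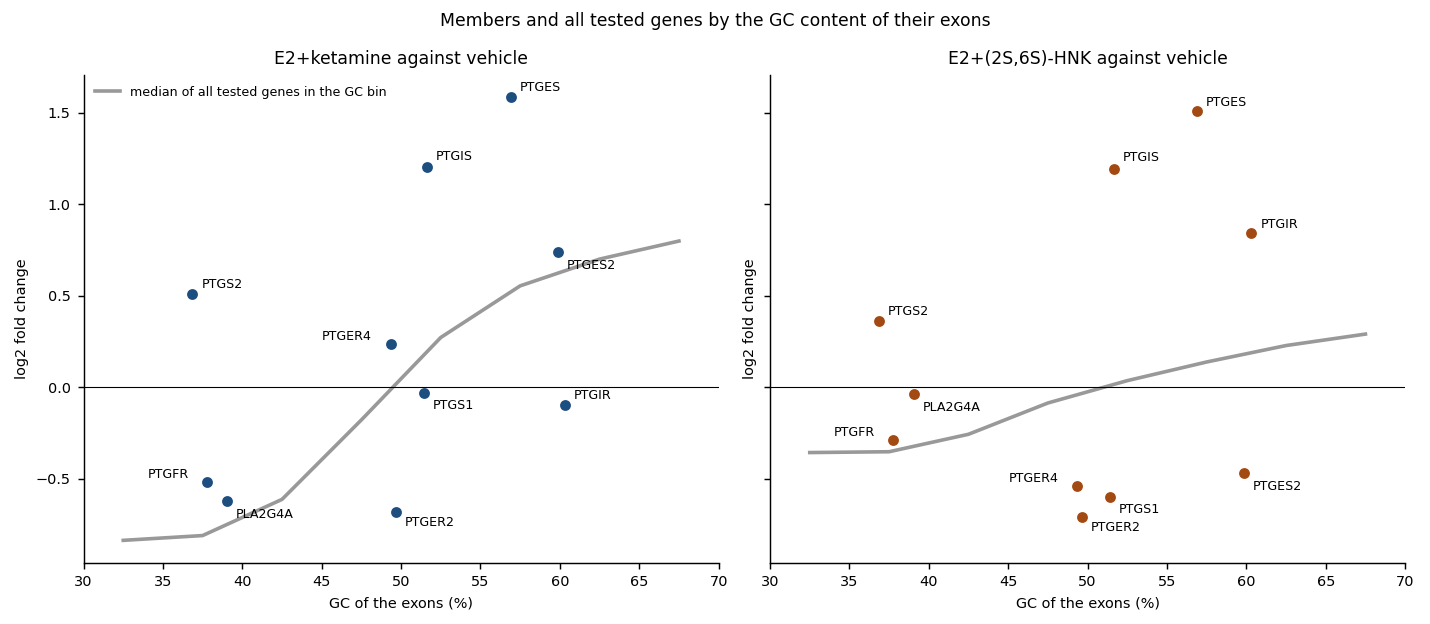
Log2 fold change against vehicle (vertical axis) by exon GC in percent (horizontal axis) for E2+ketamine (left) and E2+(2S,6S)-HNK (right), with a point for each of the 10 genes. The grey line joins the medians of all tested genes in GC bins, drawn at bin centres with the outermost bins open-ended. It climbs from -0.81 to 0.70 on the left and from -0.35 to 0.23 on the right between the bins of 35 to 40% and 60 to 65%, and PTGES and PTGIS lie above it in both panels.

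Arachidonate release rests on PLA2G4A, which lies at chr1:186798081-186958113 on the plus strand of GRCh37. Its raw counts were 20 and 18 in vehicle, 18 and 8 with E2, 32 and 53 with ketamine, 22 and 6 with (2R,6R)-HNK, and 14 and 12 with (2S,6S)-HNK. With E2 added they were 11 and 13 for ketamine, 20 and 7 for (2R,6R)-HNK, and 28 and 17 for (2S,6S)-HNK. Both ketamine libraries lay above both vehicle libraries, and the other conditions overlapped vehicle or lay below it. No comparison of PLA2G4A with vehicle was called, and its log2 fold change ran from -0.77 with E2+(2R,6R)-HNK to 0.68 with ketamine (95% interval -0.32 to 1.68), or from -0.16 to 1.11 after the correction for GC and length, with none called. Over all 19 comparisons 3 had an unadjusted p under 0.05 and edgeR called 2, both of them against ketamine, while DESeq2 called 0 of the 16 to which it gave an adjusted p.

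COX-1, encoded by PTGS1 at chr9:125132809-125157982 on the plus strand, split the conditions into a higher and a lower set. Its level was 6.26 and 6.36 CPM in vehicle, 7.47 and 6.65 with E2, 6.62 and 6.95 with ketamine, 6.94 and 6.82 with (2R,6R)-HNK, and 6.50 and 5.87 with E2+ketamine. It was 4.67 and 3.88 CPM with (2S,6S)-HNK, 4.29 and 4.03 with E2+(2S,6S)-HNK, and 5.02 and 4.59 with E2+(2R,6R)-HNK. The last 3 conditions overlapped in turn and lay below every library of the other 5. PTGS1 fell by 0.56 on the log2 scale with (2S,6S)-HNK (SE 0.12, adjusted p = 2.58e-05), by 0.39 with E2+(2R,6R)-HNK (SE 0.11, adjusted p = 0.00146) and by 0.60 with E2+(2S,6S)-HNK (SE 0.11, adjusted p = 7.95e-06). The same 3 calls stood after the correction for GC and length, at -0.74, -0.59 and -0.68. The other 4 treatments lay between -0.03 and 0.16 against vehicle and were not called.

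COX-2, encoded by PTGS2 at chr1:186640923-186650054 on the minus strand, was counted too rarely to compare. Its raw counts were 4 and 6 in vehicle, 12 and 8 with E2, 9 and 14 with ketamine, 18 and 2 with (2R,6R)-HNK, and 2 and 6 with (2S,6S)-HNK. With E2 added they were 6 and 8 for ketamine, 4 and 4 for (2R,6R)-HNK, and 14 and 2 for (2S,6S)-HNK. Replicates differed by as much as 18 against 2, and every condition overlapped the next in the order of levels. Against vehicle the log2 fold change lay between -0.58 and 0.97 with standard errors of 0.84 to 0.99, so changes of several-fold were not detectable at this depth. After the correction the values lay between 0.04 and 1.50, with none called. edgeR called 0 of 19 comparisons, with 0 at an unadjusted p under 0.05, and DESeq2 called 0 of the 12 to which it gave an adjusted p. PTGS2 overlaps PACERR, a long noncoding RNA on the opposite strand, by 219 bp, and without a stated strand setting reads of the 2 genes cannot be told apart there.

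The PTGS2 promoter is shown because the gene is known as inducible yet was near silent here. The 250 bases before its start, at chr1:186680424-186680673 of GRCh38.p14 on the minus strand, were taken from RefSeq and are written 5′ to 3′ with motif matches in capitals.
PTGS2: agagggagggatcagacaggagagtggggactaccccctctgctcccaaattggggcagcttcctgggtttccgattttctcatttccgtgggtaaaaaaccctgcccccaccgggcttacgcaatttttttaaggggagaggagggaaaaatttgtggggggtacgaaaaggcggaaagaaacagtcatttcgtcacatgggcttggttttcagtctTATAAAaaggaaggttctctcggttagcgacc
The capitals mark a TATA box, which begins 32 bases before the start, and the window is 50.4% GC. The letters searched on both strands were TATAAA, the GC box GGGCGG, the E-box CACGTG, the STAT motif TTCNNNGAA, the cAMP response element TGACGTCA and the estrogen response element GGTCANNNTGACC with its core GGTCA. Of 35116 RefSeq windows of this length, 10.7% held TATAAA, 42.6% GGGCGG, 6.34% CACGTG, 6.57% TTCNNNGAA, 1.65% TGACGTCA, 0.0399% GGTCANNNTGACC and 32.6% GGTCA. A window was at hand for 8 of the 10 genes. The GGTCA core is part of the longer element and is not put in capitals, and none of the 3 windows printed here held it. A match is a description of letters and does not mark a site of binding.

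PTGES encodes the microsomal synthase that is coupled to COX-2 in induced PGE2 production, and lies at chr9:132500610-132515321 on the minus strand. Its level was 0.262 and 0.369 CPM in vehicle, from 16 and 22 counts. It was 0.641 and 0.746 CPM with E2, 1.34 and 1.39 with ketamine, 0.894 and 0.839 with (2R,6R)-HNK, and 0.766 and 0.594 with (2S,6S)-HNK. With E2 added it was 0.996 and 0.904 CPM for ketamine, 0.926 and 0.866 for (2R,6R)-HNK, and 0.981 and 0.809 for (2S,6S)-HNK. Ketamine alone was highest and overlapped no other condition, the 3 combinations and (2R,6R)-HNK overlapped in turn, E2 and (2S,6S)-HNK overlapped below them, and vehicle was lowest.

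PTGES rose by 2.11 on the log2 scale with ketamine (SE 0.33, adjusted p = 6.44e-08), the largest called change among the 9 tested members against vehicle. It rose by 1.59 with E2+ketamine, 1.51 with E2+(2S,6S)-HNK, 1.50 with E2+(2R,6R)-HNK and 1.46 with (2R,6R)-HNK, each with an SE of 0.34 and adjusted p values of 3.07e-05 to 0.000119. The smallest changes were 1.13 with E2 (SE 0.35, adjusted p = 0.00362) and 1.10 with (2S,6S)-HNK (SE 0.36, adjusted p = 0.00463). These last 2 calls did not hold under every alternative. After correction for GC and length they became 0.85 (adjusted p = 0.051) and 0.77 (adjusted p = 0.0615), while the other 5 stayed called at 1.07 to 1.86. Without replicate 1 of vehicle they became 0.90 (adjusted p = 0.059) and 0.87 (adjusted p = 0.0663), and the (2S,6S)-HNK value was 0.91 (adjusted p = 0.0532) without replicate 1 of that condition.

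The PTGES window, at chr9:129753043-129753292 of GRCh38.p14 on the minus strand, is shown because this gene rose in each treatment.
PTGES: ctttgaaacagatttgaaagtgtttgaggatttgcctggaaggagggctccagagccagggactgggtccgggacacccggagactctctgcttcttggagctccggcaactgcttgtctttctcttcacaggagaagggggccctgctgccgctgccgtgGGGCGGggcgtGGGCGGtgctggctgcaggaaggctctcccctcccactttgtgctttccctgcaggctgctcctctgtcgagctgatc
The capitals mark 2 GC boxes, which begin 89 and 78 bases before the start, and the window is 61.2% GC. It held none of the other motifs searched.

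PTGES2 encodes the abundant membrane-associated PGE2 synthase and lies at chr9:130882972-130890741 on the minus strand. Its level was 100.2 and 97.4 CPM in vehicle, 125 and 135 with E2, 96.9 and 92.3 with ketamine, 147 and 142 with (2R,6R)-HNK, and 90.2 and 95.7 with (2S,6S)-HNK. With E2 added it was 162 and 168 CPM for ketamine, 98.1 and 93.8 for (2R,6R)-HNK, and 75.3 and 67.1 for (2S,6S)-HNK. E2+ketamine, (2R,6R)-HNK and E2 stood apart above vehicle in that order, E2+(2S,6S)-HNK stood apart below it, and the other 3 conditions overlapped in turn with vehicle or with each other. The gene rose by 0.74 with E2+ketamine, 0.55 with (2R,6R)-HNK and 0.39 with E2, and fell by 0.47 with E2+(2S,6S)-HNK, each with an SE of 0.04 and adjusted p values of 1.98e-22 to 3.46e-12. The correction for base composition changed 4 of the 7 calls of PTGES2 against vehicle. Corrected for GC and length, the E2 value was -0.01 (adjusted p = 0.862), the (2R,6R)-HNK value 0.09 (adjusted p = 0.0236) and the E2+ketamine value 0.11 (adjusted p = 0.00321). Ketamine, (2S,6S)-HNK and E2+(2R,6R)-HNK, which were not called before, became -0.42, -0.58 and -0.58, and E2+(2S,6S)-HNK became -0.74. Before correction (2S,6S)-HNK was at -0.09 (adjusted p = 0.0576), which passed the threshold without a filter (adjusted p = 0.0358). Leaving out 1 library gave -0.13 to -0.05. The value passed without replicate 2 of (2S,6S)-HNK, at -0.13, without replicate 1 of E2 and without replicate 1 or 2 of E2+(2S,6S)-HNK. How far base composition accounts for the PTGES2 values was not tested beyond this correction.

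Prostacyclin synthase, PTGIS, lies at chr20:48120411-48184674 on the minus strand. Its level was 3.74 and 3.74 CPM in vehicle, 8.39 and 7.46 with E2, 10.9 and 9.89 with ketamine, 7.90 and 7.97 with (2R,6R)-HNK, and 8.52 and 10.8 with (2S,6S)-HNK. With E2 added it was 9.24 and 8.02 CPM for ketamine, 11.7 and 11.6 for (2R,6R)-HNK, and 8.87 and 8.24 for (2S,6S)-HNK. The treated libraries ran from 7.46 to 11.7 CPM with a median of 8.70, and none came near vehicle. E2+(2R,6R)-HNK was highest and overlapped no other condition. Ketamine followed and overlapped (2S,6S)-HNK, which overlapped E2+ketamine and E2+(2S,6S)-HNK. E2 overlapped both of these and (2R,6R)-HNK. As a description, the log2 difference from vehicle was 1.08 with E2, the value in view when the genes were chosen, 1.08 with (2R,6R)-HNK, 1.37 with (2S,6S)-HNK and 1.47 with ketamine. It was 1.63, 1.19 and 1.20 for these 3 drugs with E2, in the same order, and 0.92 to 1.42 over the 7 treatments after the correction for GC and length.

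Among the receptors, PTGER2 (EP2) had the steadiest difference from vehicle. It lies at chr14:52781023-52795316 on the plus strand. Its level was 7.67 and 7.59 CPM in vehicle, 5.42 and 5.26 with E2, 6.00 and 5.63 with ketamine, 4.92 and 5.04 with (2R,6R)-HNK, and 4.65 and 3.51 with (2S,6S)-HNK. With E2 added it was 5.47 and 4.04 CPM for ketamine, 3.42 and 3.77 for (2R,6R)-HNK, and 4.59 and 4.76 for (2S,6S)-HNK. Vehicle was highest, ketamine lay next, neither overlapped another condition, and the other 6 conditions overlapped in part. PTGER2 fell by 1.09 with E2+(2R,6R)-HNK (SE 0.12, adjusted p = 5.33e-11) and by 0.91 with (2S,6S)-HNK (SE 0.13, adjusted p = 1.1e-08). The other log2 fold changes were -0.71 with E2+(2S,6S)-HNK, -0.68 with E2+ketamine, -0.62 with (2R,6R)-HNK, -0.51 with E2 and -0.39 with ketamine, with adjusted p values of 1.31e-06 to 0.0031. All 7 stayed called after the correction for GC and length, at -0.43 to -1.11, and in each of the 16 fits that left out a library.

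The PTGER2 window, at chr14:52314062-52314311 of GRCh38.p14 on the plus strand, is shown because this gene fell in each treatment.
PTGER2: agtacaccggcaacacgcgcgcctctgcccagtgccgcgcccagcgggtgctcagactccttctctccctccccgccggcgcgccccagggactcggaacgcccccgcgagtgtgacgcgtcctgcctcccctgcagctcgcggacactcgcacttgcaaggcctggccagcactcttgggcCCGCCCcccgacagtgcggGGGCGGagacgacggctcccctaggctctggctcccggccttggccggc
The capitals mark 2 GC boxes, which begin 68 bases before the start on the minus strand and 49 bases before it on the plus strand, and the window is 74% GC. It too held none of the other motifs.

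PTGER4, the EP4 receptor at chr5:40680017-40693837 on the plus strand, was lower in a pair of combinations. Its level was 4.17 and 3.47 CPM in vehicle, 4.15 and 3.51 with E2, 4.36 and 5.04 with ketamine, 3.17 and 3.11 with (2R,6R)-HNK, and 3.60 and 3.17 with (2S,6S)-HNK. With E2 added it was 5.27 and 3.74 CPM for ketamine, 2.71 and 2.40 for (2R,6R)-HNK, and 2.69 and 2.57 for (2S,6S)-HNK. The last 2 conditions overlapped each other and lay below all the rest, which overlapped in turn. PTGER4 fell by 0.58 with E2+(2R,6R)-HNK (SE 0.15, adjusted p = 0.000798) and by 0.54 with E2+(2S,6S)-HNK (SE 0.15, adjusted p = 0.0021), and the second became -0.40 (adjusted p = 0.0648) without replicate 1 of vehicle. With ketamine alone the value was 0.30 (adjusted p = 0.0703). It passed the threshold under upper-quartile scaling at 0.38 (adjusted p = 0.0182) and in the fit to the groups compared only (adjusted p = 0.0211). It also passed without a filter (adjusted p = 0.0461) and under RLE scaling (adjusted p = 0.0465). Leaving out 1 library gave 0.17 to 0.43. It passed without replicate 1 of ketamine, at 0.40, and without replicate 1 of vehicle, at 0.43. With E2+ketamine PTGER4 was at 0.24, or -0.03 to 0.46 when 1 library was left out. It passed at 0.46, without replicate 2 of E2+ketamine. With (2R,6R)-HNK PTGER4 was at -0.28, or -0.41 to -0.14 when 1 library was left out. It passed at -0.41, without replicate 2 of vehicle.

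PTGFR and PTGIR were scarce and showed no called change against vehicle. PTGFR is the FP receptor, at chr1:78769568-79006386 on the plus strand. Its level was 0.981 and 0.940 CPM in vehicle, 0.481 and 0.712 with E2, 0.969 and 1.24 with ketamine, 0.687 and 0.734 with (2R,6R)-HNK, and 1.31 and 0.746 with (2S,6S)-HNK. With E2 added it was 0.692 and 0.648 CPM for ketamine, 0.872 and 1.17 for (2R,6R)-HNK, and 0.810 and 0.762 for (2S,6S)-HNK. E2, (2R,6R)-HNK, E2+ketamine and E2+(2S,6S)-HNK lay wholly below vehicle, and the other 3 treatments overlapped it. The log2 difference of PTGFR from vehicle with E2 was -0.69 (SE 0.32, adjusted p = 0.0526), which is close to the threshold. It passed without a filter (adjusted p = 0.0406) and with at least 10 counts in every library (adjusted p = 0.0423). Leaving out 1 library gave -0.997 to -0.43. It passed without replicate 2 of E2, at -0.997, and without replicate 1 or 2 of (2S,6S)-HNK, at -0.69. After the correction for GC and length it was -0.17 (adjusted p = 0.731), and the correction instead called E2+(2R,6R)-HNK at 0.70 (adjusted p = 0.0322). PTGIR, the prostacyclin receptor at chr19:47123725-47128346 on the minus strand, held 12 to 40 counts in a library, or 0.205 to 0.622 CPM. Against vehicle its log2 fold change lay between -0.09 and 0.84, or between -0.74 and 0.57 after the correction. Every condition of PTGIR overlapped the next, edgeR called 0 of 19 comparisons with 0 at an unadjusted p under 0.05, and DESeq2 called 0 of 18.

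The second question was what E2 does when a drug is present. The comparison of E2+ketamine with ketamine called 5 of 10 members, beside 57.5% of all genes, that of E2+(2R,6R)-HNK with (2R,6R)-HNK called 4, beside 47.9%, and that of E2+(2S,6S)-HNK with (2S,6S)-HNK called 2, beside 51.3%. These shares lie near or below the background. E2 raised PTGES2 by 0.80 in the presence of ketamine (SE 0.04, adjusted p = 2.72e-23). In the presence of the metabolites PTGES2 fell by 0.59 with (2R,6R)-HNK (SE 0.04, adjusted p = 7.09e-18) and by 0.38 with (2S,6S)-HNK (SE 0.04, adjusted p = 5.18e-11). The correction for GC and length left these 3 called in the same directions, at 0.53, -0.67 and -0.16. E2 thus moved the abundant PGE2 synthase up with ketamine and down with either metabolite.

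PTGIS also differed by drug: E2 raised it by 0.55 with (2R,6R)-HNK (SE 0.10, adjusted p = 3.7e-06) and lowered it with ketamine, where it fell by 0.27 (SE 0.10, adjusted p = 0.0138). The ketamine call was lost under DESeq2 (-0.25, adjusted p = 0.0645), without replicate 2 of E2+ketamine (-0.17, adjusted p = 0.225) and without replicate 1 of ketamine (-0.20, adjusted p = 0.166). With (2S,6S)-HNK the PTGIS value was -0.18 (95% interval -0.38 to 0.02), and ranged from -0.34 to 0.01 when 1 library was left out. It passed the threshold at -0.34, without replicate 1 of (2S,6S)-HNK. PTGS1 fell by 0.52 when E2 joined (2R,6R)-HNK (SE 0.11, adjusted p = 6.91e-05), and PTGER2 fell by 0.47 (SE 0.13, adjusted p = 0.00189). The remaining calls were fragile. With ketamine, PTGER2 was at -0.29 (adjusted p = 0.0393) and DESeq2 gave -0.27 (adjusted p = 0.127), while leaving out replicate 1 or 2 of E2+ketamine gave -0.53, still called, or -0.09 (adjusted p = 0.645), and leaving out replicate 1 or 2 of ketamine gave -0.24 (adjusted p = 0.189) or -0.34 (adjusted p = 0.0579). PTGFR at -0.72 (adjusted p = 0.0345) and PLA2G4A at -1.30 (adjusted p = 0.0315) lost their calls under DESeq2 (adjusted p = 0.08 and 0.0748) and after the correction for GC and length (-0.42 and -1.05). For both, the call also ended without either E2+ketamine library or without replicate 2 of ketamine, where the values were -0.53 for PTGFR and -0.87 for PLA2G4A. PTGER4 at -0.36 with (2S,6S)-HNK (adjusted p = 0.0495) lost its call under DESeq2 (adjusted p = 0.0819) and after the correction for GC and length (-0.33, adjusted p = 0.0958). This call also ended under upper-quartile scaling (adjusted p = 0.071), in the fit to the groups compared only (adjusted p = 0.0662) and with halved counts (adjusted p = 0.0617). It was lost too in 7 of the 16 fits that left out a library, with the smallest value, -0.27, without replicate 1 of (2S,6S)-HNK. PTGES with ketamine was not called at -0.52 (adjusted p = 0.0889), and was called after the correction at -0.79 (adjusted p = 0.0123). The correction for GC and length also moved the split of all genes, from 27.3% higher and 30.2% lower to 24.6% and 17.7% for ketamine and from 24.1% and 27.2% to 10.6% and 19.7% for (2S,6S)-HNK.

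**Figure D4:**
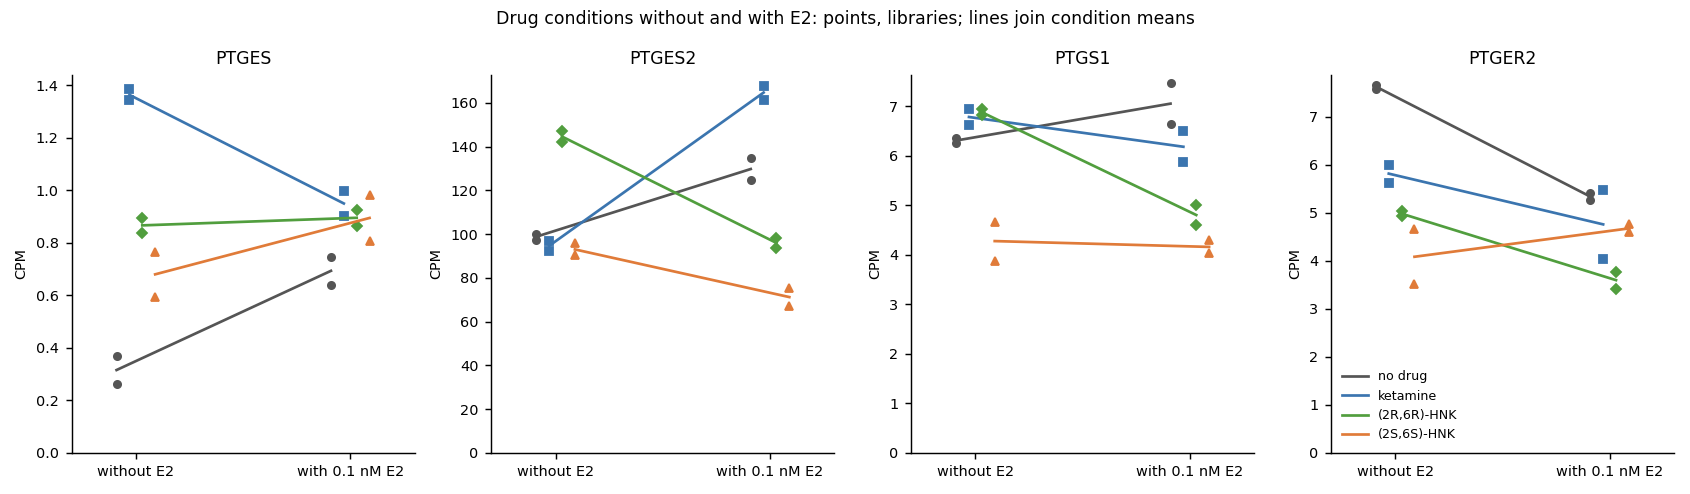
Level in CPM (vertical axis) of PTGES, PTGES2, PTGS1 and PTGER2 without and with 0.1 nM E2 (horizontal axis), with a point for each library and lines that join condition means for no drug and for each of the 3 drugs. Lines that are not parallel show the interactions: the PTGES2 line rises with ketamine and with no drug and falls with either HNK, and the PTGES line rises with no drug and falls with ketamine.

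Whether E2 acts differently with a drug than without it was tested as an interaction, the effect of E2 in the presence of the drug minus its effect on its own. Of 9 members the interaction called 2 with ketamine, beside 37.5% of all genes, 4 with (2R,6R)-HNK, beside 56.6%, and 2 with (2S,6S)-HNK, beside 65.1%. For ketamine, 24.5% of all genes had a higher and 13.1% a lower interaction, and upper-quartile scaling moved that split to 17.2% and 19.5%. PTGES had an interaction of -1.65 with ketamine (SE 0.44, adjusted p = 0.00178), which the correction for GC and length left at -1.64. E2 and ketamine each raised PTGES alone, by 1.13 and 2.11, and together by 1.59, less than the 3.24 of both added. With (2R,6R)-HNK the PTGES interaction was -1.09 (SE 0.45, adjusted p = 0.0327), and it was not called after the correction (-0.78, adjusted p = 0.17), without replicate 1 of vehicle (-0.86, adjusted p = 0.148), or without 1 of 3 other libraries (-0.97 to -1.04).

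PTGES2 had an interaction with each drug: 0.41 with ketamine, -0.78 with (2S,6S)-HNK and -0.98 with (2R,6R)-HNK, each with an SE of 0.06. The corrected values, in the same order, were 0.54, -0.15 and -0.66, all called. PTGS1 had an interaction of -0.68 with (2R,6R)-HNK (SE 0.15, adjusted p = 0.000136), and PTGER2 of 0.71 with (2S,6S)-HNK (SE 0.18, adjusted p = 0.000406). Against vehicle PTGER2 was at -0.51 with E2 and -0.91 with (2S,6S)-HNK, and at -0.71 with both. PTGFR had 1.22 with (2R,6R)-HNK (SE 0.43, adjusted p = 0.0139), which was not called after the correction (0.70, adjusted p = 0.193), without replicate 1 of E2 (0.96, adjusted p = 0.0841) or without replicate 2 of E2+(2R,6R)-HNK (0.99, adjusted p = 0.079). PTGS2 was not called with (2R,6R)-HNK, at -2.34 (SE 1.24, adjusted p = 0.0904). When 1 library was left out the PTGS2 value ranged from -3.03 (adjusted p = 0.0352), without replicate 2 of (2R,6R)-HNK, to -0.35, without replicate 1 of that condition, and it was -2.84 (adjusted p = 0.0446) after the correction. Since PTGS2 passed the filter through libraries in which it was high, no difference is read from these values. For PTGIS the same quantity, with no test, was -1.35 with ketamine, -1.26 with (2S,6S)-HNK and -0.53 with (2R,6R)-HNK.

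The 3 compounds were then compared with each other at the matched dose of 400 nM and 24 h, which gave 3 pairs without E2 and 3 with it, 6 pairs in all. Adjusting the p-values over the genes of all 6 pairs together changed no call of a member. Called members were 5 of 10 for (2R,6R)-HNK against ketamine, beside 45.4% of all genes, 4 for (2S,6S)-HNK against ketamine, beside 46.1%, and 3 for (2S,6S)-HNK against (2R,6R)-HNK, beside 43.5%. In the presence of E2 they were 5 for (2R,6R)-HNK against ketamine, beside 52% of all genes, 3 for (2S,6S)-HNK against ketamine, beside 66.8%, and 3 for (2S,6S)-HNK against (2R,6R)-HNK, beside 54%. After the correction for GC and length the split of all genes for (2R,6R)-HNK against ketamine went from 22.6% higher and 22.8% lower to 24.1% and 14.6%, and for E2+(2S,6S)-HNK against E2+(2R,6R)-HNK from 25% and 29.1% to 12.1% and 17.6%. In this last pair 3 of 10 members were called after the correction, beside 29.7% of all genes.

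**Figure D5:**
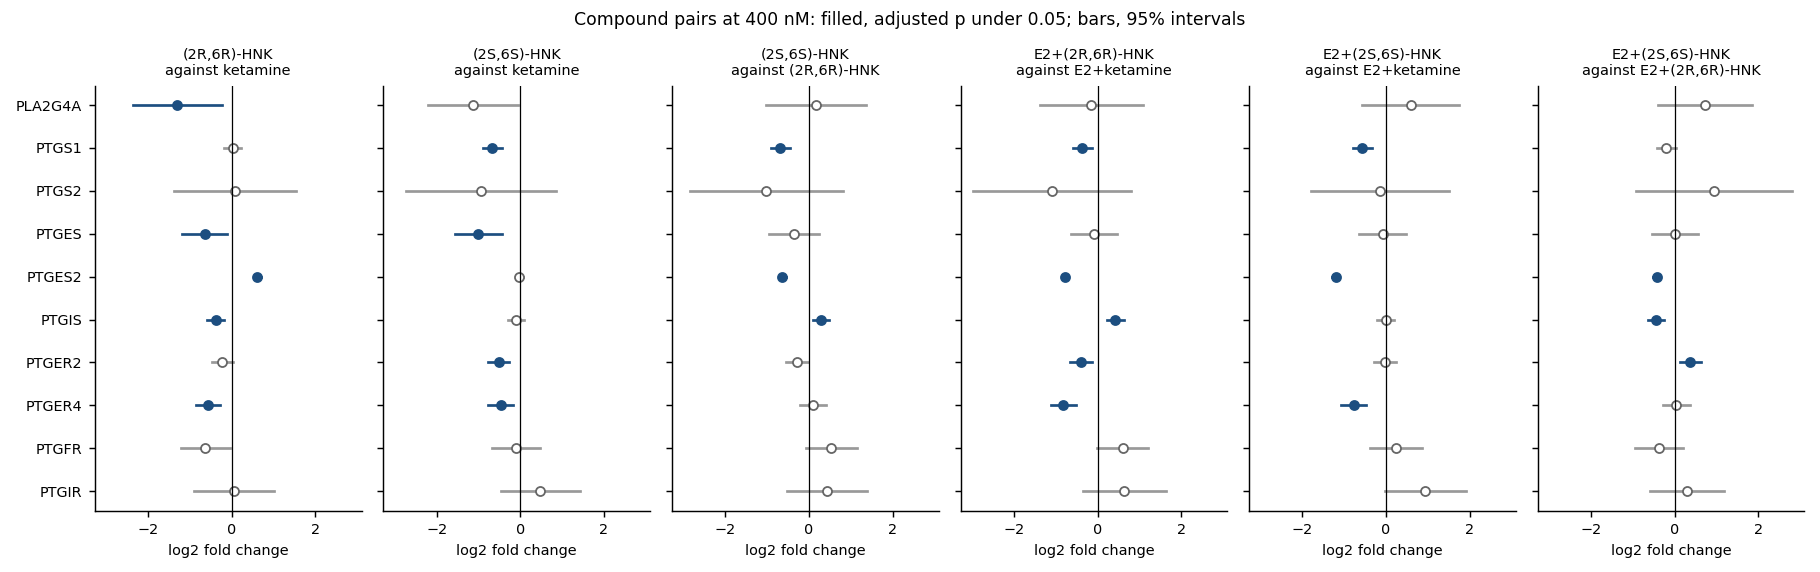
Log2 fold change (horizontal axis) of the 10 genes (vertical axis) in the 6 compound pairs, without E2 in the left 3 panels and with E2 in the right 3. Filled points have an adjusted p under 0.05, open points do not, and bars are 95% intervals. The widest intervals belong to PTGS2, PTGIR and PLA2G4A, and the narrowest to PTGES2.

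The stereoisomers differed most clearly in PTGS1 and PTGES2. PTGS1 was lower with (2S,6S)-HNK than with (2R,6R)-HNK by a log2 fold change of -0.69 (SE 0.11, adjusted p = 1.47e-06, over the 6 pairs 9.11e-07), and PTGES2 by -0.64 (SE 0.04, adjusted p = 1.38e-18, over the 6 pairs 5.27e-19). PTGIS was higher with (2S,6S)-HNK by 0.29 (SE 0.10, adjusted p = 0.0153, over the 6 pairs 0.0125), a call that ended without replicate 2 of (2S,6S)-HNK (0.10, adjusted p = 0.548) or without either (2R,6R)-HNK library (0.28, adjusted p = 0.0804, and 0.29, adjusted p = 0.0531). The value was 0.45, still called, without replicate 1 of (2S,6S)-HNK. With E2 present PTGIS went the other way, with -0.44 for (2S,6S)-HNK against (2R,6R)-HNK (SE 0.09, adjusted p = 8.05e-05, over the 6 pairs 8.97e-05). PTGES2 was again lower, at -0.43 (SE 0.04, adjusted p = 9.77e-13), and -0.16 after the correction for GC and length. PTGER2 was higher at 0.38 (SE 0.13, adjusted p = 0.0103), and was not called without replicate 1 of E2+(2R,6R)-HNK (0.31, adjusted p = 0.111) or replicate 2 of E2+(2S,6S)-HNK (0.35, adjusted p = 0.0557).

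No other member was called between the stereoisomers. Without E2 the difference was -0.36 for PTGES (95% interval -0.95 to 0.24), -0.29 for PTGER2 (-0.55 to -0.03, adjusted p = 0.0678) and 0.10 for PTGER4 (-0.21 to 0.42). The PTGER2 value ranged from -0.50 to -0.10 when 1 library was left out, and passed the threshold at -0.50, without replicate 1 of (2S,6S)-HNK. PTGFR gave 0.53 (95% interval -0.08 to 1.14, adjusted p = 0.159). Leaving out 1 library gave PTGFR values from 0.07 to 0.89, and 0.89, without replicate 2 of (2S,6S)-HNK, passed the threshold. With E2 it was -0.21 for PTGS1 (95% interval -0.43 to 0.02), 0.01 for PTGES (-0.54 to 0.55) and 0.04 for PTGER4 (-0.28 to 0.36). The intervals of PTGES allow differences of over 0.5 in either direction with E2, so no likeness of the compounds follows from them. PTGIR, which no comparison called, gave 0.94 for E2+(2S,6S)-HNK against E2+ketamine (adjusted p = 0.0803). This value passed at 0.93 (adjusted p = 0.0423) with at least 10 counts in every library. It also passed at 1.31 (adjusted p = 0.0156) after the correction for GC and length.

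Ketamine stood apart from its metabolites in PTGES, without E2, and in PTGER4. PTGES was lower with (2S,6S)-HNK than with ketamine by -1.01 (SE 0.28, adjusted p = 0.00224) and with (2R,6R)-HNK by -0.65 (SE 0.26, adjusted p = 0.0387), but the second was not called by DESeq2 (-0.64, adjusted p = 0.0754) or without any 1 of the 4 libraries (-0.61 to -0.70). PTGER4 was lower by -0.58 with (2R,6R)-HNK (SE 0.14, adjusted p = 0.000759) and by -0.47 with (2S,6S)-HNK (SE 0.15, adjusted p = 0.00611), the latter not called without replicate 2 of (2S,6S)-HNK (-0.39, adjusted p = 0.0871) or of ketamine (-0.37, adjusted p = 0.0979). With E2 present the PTGES differences from ketamine were -0.08 for (2R,6R)-HNK (95% interval -0.64 to 0.47) and -0.08 for (2S,6S)-HNK (-0.64 to 0.48). With E2 present the PTGER4 differences were -0.82 and -0.78, each with an SE of 0.15 and adjusted p values of 8.84e-06 and 1.2e-05, and without replicate 1 of E2+ketamine they were -0.55 and -0.51, both still called. The EP4 message was thus higher with ketamine than with either metabolite, with E2 and without it.

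The abundant synthase and COX-1 separated ketamine from 1 metabolite without E2 and from both with it. PTGES2 was higher with (2R,6R)-HNK than with ketamine by 0.61 (SE 0.04, adjusted p = 2.89e-18), whereas (2S,6S)-HNK differed from ketamine by -0.03 (95% interval -0.11 to 0.06), a difference that became -0.16 (adjusted p = 3.31e-05) after the correction. With E2 both metabolites were lower in PTGES2, by -0.78 and -1.21 (SE 0.04, adjusted p = 1.53e-22 and 1.95e-30). PTGS1 was lower with (2S,6S)-HNK than with ketamine by -0.67 (SE 0.11, adjusted p = 1.61e-06), and (2R,6R)-HNK differed from ketamine by 0.02 (95% interval -0.19 to 0.23). With E2 the PTGS1 differences from ketamine were -0.57 for (2S,6S)-HNK (SE 0.11, adjusted p = 1.55e-05) and -0.36 for (2R,6R)-HNK (SE 0.11, adjusted p = 0.00475). The second was not called without replicate 1 of E2+ketamine (-0.29, adjusted p = 0.0821) or replicate 2 of E2+(2R,6R)-HNK (-0.30, adjusted p = 0.0667).

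PTGIS was lower with (2R,6R)-HNK than with ketamine by -0.39 (SE 0.10, adjusted p = 0.000593) and, with E2, higher by 0.43 (SE 0.10, adjusted p = 0.000169), so the order of these compounds turned over when E2 was present. For (2S,6S)-HNK against ketamine PTGIS gave -0.10 without E2 (95% interval -0.29 to 0.09) and -0.01 with it (-0.21 to 0.19). The value without E2 ranged from -0.29 to 0.06 when 1 library was left out. It passed the threshold at -0.29, without replicate 2 of (2S,6S)-HNK. PTGER2 was lower with (2S,6S)-HNK than with ketamine by -0.51 (SE 0.13, adjusted p = 0.000588), a value of -0.32 (adjusted p = 0.0851) without replicate 2 of (2S,6S)-HNK. With E2 it was lower with (2R,6R)-HNK by -0.41 (SE 0.13, adjusted p = 0.00757), which became -0.17 (adjusted p = 0.401) without replicate 1 of E2+ketamine and -0.33 (adjusted p = 0.0868) without replicate 1 of E2+(2R,6R)-HNK. PLA2G4A was lower with (2R,6R)-HNK than with ketamine by -1.31 (SE 0.53, adjusted p = 0.0342), and the call ended after the correction (-1.19, adjusted p = 0.0611), without replicate 2 of (2R,6R)-HNK (-0.82, adjusted p = 0.307) and without replicate 2 of ketamine (-0.88, adjusted p = 0.323), while it was -2.25 without replicate 1 of (2R,6R)-HNK.

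Other genes of the pathway were read as a list of 27 synthases, receptors, carriers, degrading enzymes and lipases, of which 21 were tested. Over the 7 treatments 24% to 34.3% of all genes rose and 32.5% to 37.4% fell against vehicle, or 15.4% to 25.7% and 22.7% to 34.1% after the correction for GC and length, and the counts of the 4 lists stand beside these shares as a description. Against vehicle 6 rose and 3 fell with E2, 6 and 2 with ketamine, 7 and 4 with either HNK, 7 and 5 with E2+ketamine, 6 and 5 with E2+(2R,6R)-HNK, and 4 and 6 with E2+(2S,6S)-HNK. After the correction for GC and length the same counts were 2 and 4, 2 and 6, 3 and 6, 3 and 7, 4 and 4, 3 and 8, and 5 and 8. The median log2 fold change of the list lay between -0.03 with E2+(2S,6S)-HNK and 0.54 with E2+ketamine, where that of all genes lay between -0.06 and -0.00. After the correction it lay between -0.20 with (2S,6S)-HNK and 0.06 with E2+ketamine. PLA2G6, a calcium-independent phospholipase, rose in all 7 treatments by 0.59 to 1.11. Corrected for GC and length, PLA2G6 stayed called in 6, at 0.35 to 0.59, and was 0.20 with E2 (adjusted p = 0.254). ABCC4, a transporter that exports prostaglandins, fell in all 7, with log2 fold changes of -0.52 to -1.17, or -0.18 to -0.80 after the correction, all called. PTGES3, a cytosolic PGE2 synthase and chaperone partner, also fell in all 7, at -0.31 to -0.75, or -0.22 to -0.47 after the correction, all called. The prostaglandin-degrading enzyme HPGD was at -2.15 with E2+(2R,6R)-HNK (adjusted p = 0.0066), and at -1.58 (adjusted p = 0.0475) after the correction. HPGD was scarce, with 2 to 27 counts in a library and a median of 12, so this value rests on few counts. PTGDR and PLA2G5 had 0 counts in each library, with the same limit of 0.0350 to 0.0547 CPM.

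Of 14 leukotriene and lipoxygenase genes 7 were tested, and 2 to 4 rose and 1 fell in each treatment against vehicle. The leukotriene B4 receptor LTB4R2 rose in all 7 treatments by 0.58 to 1.12, and LTA4H, the enzyme that makes leukotriene B4, fell in all 7, at -0.23 to -0.79. After the correction LTB4R2 was called with (2S,6S)-HNK, alone (0.65) and with E2 (0.87), and with E2+(2R,6R)-HNK (0.57), and lay between -0.04 and 0.37 in the other 4. Corrected LTA4H was called only with E2+ketamine (-0.14, adjusted p = 0.00118) and lay between -0.08 and 0.04 in the other 6. The median of the list lay between 0.58 and 0.89, and after the correction between -0.04 with E2+ketamine and 0.55 with (2S,6S)-HNK. Over the list, after the correction, 0 to 3 of the 7 genes rose and 0 or 1 fell. The enzyme ALOX5 and its partner ALOX5AP, which start that branch, had median counts of 2 and were not tested.

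Among 14 inflammatory genes often induced together with PTGS2, 13 were tested. The counts of rises and falls were 4 and 1 with E2, 3 and 1 with ketamine, 4 and 4 with (2S,6S)-HNK, 3 and 1 with (2R,6R)-HNK, 7 and 2 with E2+ketamine, 3 and 4 with E2+(2R,6R)-HNK, and 3 and 6 with E2+(2S,6S)-HNK. ICAM1, an adhesion molecule, rose in all 7 by 0.66 to 1.28, and NFKB1 fell in all 7, at -0.29 to -0.67. After the correction ICAM1 was called only with E2+(2R,6R)-HNK (0.91) and E2+(2S,6S)-HNK (0.64), and lay between 0.32 and 0.45 in the other 5. The direction of NFKB1 depended on the correction, which gave called rises with (2R,6R)-HNK (0.18, adjusted p = 0.0173) and E2+ketamine (0.25, adjusted p = 0.000907). Corrected NFKB1 was not called with E2 (0.14) or ketamine (-0.14), and fell with (2S,6S)-HNK (-0.21), E2+(2R,6R)-HNK (-0.17) and E2+(2S,6S)-HNK (-0.34). IL6, a cytokine, rose with E2+ketamine by 0.66 (adjusted p = 0.0305). It fell with (2S,6S)-HNK by 0.85 (adjusted p = 0.0152), with E2+(2S,6S)-HNK by 0.95 (adjusted p = 0.0064) and with E2+(2R,6R)-HNK by 1.68 (adjusted p = 1.21e-05). After the correction the IL6 rise was 0.96, the falls in the combinations were 0.86 and 1.50, and the value with (2S,6S)-HNK alone, -0.66, was not called (adjusted p = 0.0701). The list median lay between -0.20 with E2+(2S,6S)-HNK and 0.54 with E2+ketamine, and between -0.21 and 0.51 after the correction. TNF had a median count of 0. Of the tested genes, IL1A, IL1B and the chemokines of the list were scarce too, with median counts of 6 to 20. Corrected for GC and length, the most rises were 7 with E2+ketamine and the most falls 6 with E2+(2S,6S)-HNK.

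EP2, EP4 and IP signal through cAMP, so 12 cAMP-responsive genes were read as well, all of them tested. Rises and falls were 5 and 1 with E2, 6 and 0 with ketamine, 5 and 2 with (2S,6S)-HNK, 5 and 1 with (2R,6R)-HNK, 5 and 0 with E2+ketamine, 5 and 2 with E2+(2R,6R)-HNK, and 4 and 0 with E2+(2S,6S)-HNK. The immediate early gene FOS rose in all 7 treatments by 0.96 to 1.69, the nuclear receptor NR4A1 by 0.50 to 1.11 and the clock gene PER1 by 0.39 to 1.23. After the correction FOS stayed called in all 7, at 0.70 to 1.41. Corrected NR4A1 was not called with (2R,6R)-HNK (0.05) or E2+ketamine (0.12), and was called in the other 5 at 0.23 to 0.57. Corrected PER1 was called with (2S,6S)-HNK (0.70), E2+(2R,6R)-HNK (0.55) and E2+(2S,6S)-HNK (0.57), fell with E2+ketamine (-0.18, adjusted p = 0.00381), and lay between -0.03 and 0.10 in the other 3. The list median lay between 0.12 and 0.49, and between -0.00 and 0.40 after the correction. Over the list, after the correction, 3 to 7 of the 12 rose and 0 or 1 fell. These lists share the vehicle libraries and the GC trend of the members, and no test compared them with other genes.

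Likeness between genes was measured as the root mean square difference of log2 CPM over the 8 condition means, each gene centred on its own mean, among 12749 genes. The profile of PTGIS was closest to CARNS1 at 0.0899 and COL8A2 at 0.0974, where the median gene was at 0.512. PTGS1 was closest to PLEKHA7 at 0.0671 and SMAD7 at 0.0857 (median 0.361). For PTGES the closest genes were CPZ at 0.185 and ANPEP at 0.223 (median 0.592), and for PTGER2 they were ACER3 at 0.0488 and RAD51C at 0.0609 (median 0.348). The nearest genes were chosen from many, so short distances are a description of these 8 means. PTGS2 was counted too rarely for a profile to be given.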

How the data were processed

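The counts the authors deposited were used as they stand. Per the submitters' processing notes, reads were aligned to UCSC hg19 with TopHat2 2.0.14 and Bowtie2 2.2.6, and uniquely mapped, non-discordant pairs were counted per gene with featureCounts 1.4.6 on iGenomes gene models, from cDNA amplified with the Ovation RNA-seq v2 kit. Neither the strand setting nor whether both reads of a pair were counted is given. Of the counts from 1 to 9, 65.8% were even, beside 49.9% of those of at least 500, so halved counts were tried.

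From these counts, R 4.3.3 with edgeR 4.0.16 filtered genes on low counts (filterByExpr), scaled libraries by TMM and fitted the 8 condition means in 1 quasi-likelihood model (8 residual and 39.6 prior degrees of freedom). Each of the 19 comparisons had its own Benjamini-Hochberg adjustment. CPM used the TMM-scaled totals. Alternatives were DESeq2 1.42.0, a fit to only the groups compared, filters of none and of 10 counts in every library, upper-quartile and RLE scaling, the replicate number as a block, a loess correction for exon GC and length (span 0.5), the last 2 together, halved counts, adjustment over all 6 compound pairs, and each library left out in turn. GENCODE gene models on GRCh37 were matched through current symbols for 21539 genes and through older ones for 1552. GC content was known for 96.2% of tested genes. The correction cannot separate a library bias from a cellular change that tracks GC content. Promoter windows came from RefSeq.

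The members and the gene lists were chosen with earlier results of these data known. The text names all 10 members, and from the lists of pathway, leukotriene, inflammatory, cAMP-responsive and marker genes at most 4 examples for a comparison. The summed level of the microglial markers is not reported here. The genes most like a member in profile, among those with a mean of at least 1 CPM, were named for PTGIS and PTGS1 and for members whose called difference from vehicle was 1 or more on the log2 scale, up or down. No profile is given for PTGS2, which was counted too rarely.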

Additional observations from a re-analysis of the deposited data

Results flagged for a closer look

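In 8 cases the effect of E2 on a member differed between cells given a drug and cells given none, by edgeR's test of the difference itself (adjusted p under 0.05). These were 2 of 9 members with ketamine, 2 with (2S,6S)-HNK and 4 with (2R,6R)-HNK, below the 37.5%, 65.1% and 56.6% of all genes called there. Each value is the log2 effect of E2 with the drug minus its log2 effect alone. With ketamine it was -1.65 for PTGES and 0.41 for PTGES2. With (2R,6R)-HNK it was -0.68 for PTGS1, -1.09 for PTGES, -0.98 for PTGES2 and 1.22 for PTGFR. With (2S,6S)-HNK it was -0.78 for PTGES2 and 0.71 for PTGER2. The count-weighted exon GC of the libraries differed between the conditions compared, from 50.2% to 52.9%. After the correction for exon GC and length, which left 36.8% of all genes called with ketamine, 40.2% with (2S,6S)-HNK and 43.4% with (2R,6R)-HNK, 6 of the 8 were still called, with -1.64 for PTGES and 0.54 for PTGES2 with ketamine, -0.60 for PTGS1 and -0.66 for PTGES2 with (2R,6R)-HNK, and -0.15 for PTGES2 and 0.76 for PTGER2 with (2S,6S)-HNK. PTGES and PTGFR with (2R,6R)-HNK were not called, at -0.78 (adjusted p = 0.17) and 0.70 (adjusted p = 0.193). All 8 rest on the same 2 vehicle libraries and the same 2 E2 libraries.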

How the results depend on the processing

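Counts of called members stayed within 1.5 times their value in all 19 comparisons without a filter, with at least 10 counts in every library and under RLE scaling, and in all 6 pairs under adjustment over the pairs. DESeq2 called 1 member in place of 5 for E2+ketamine against ketamine, 1 in place of 2 for E2+(2S,6S)-HNK against (2S,6S)-HNK, and 3 in place of 5 for (2R,6R)-HNK against ketamine. In that last pair PTGES lost its call, and PLA2G4A was not counted because DESeq2 gave it no adjusted p. For E2+(2S,6S)-HNK against (2S,6S)-HNK the count was also 1 in the fit to the groups compared only, under upper-quartile scaling, with halved counts and with the GC and length correction. The cause of the other lost calls was not tested.

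With the GC and length correction 1 member was called for E2 against vehicle in place of 3, and PTGES2 there changed from 0.39 to -0.00932 (adjusted p = 0.862). Of 190 single values 166 kept their side of the threshold, some of the uncalled ones with a change of sign. A further 8 lost and 8 gained a call, and PTGES2 with E2 lost its call with the change of sign given above. The 7 other values, given without a test, moved by more than their standard error in the main fit.

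Replicate numbers taken as a block changed no call among 190 single values and 19 counts, and differences from the condition mean correlated between -0.0258 and 0.0451 over 28 pairs of conditions, so the numbers do not pair the samples. Block and correction together gave 1 called for E2 against vehicle, with PTGES2 at -0.00898, 1 for E2+(2S,6S)-HNK against (2S,6S)-HNK, and 2 in place of 4 for the interaction of E2 and (2R,6R)-HNK.

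Leaving out 1 library leaves 1 in its condition, which is then assumed to vary like the other groups. Of 3040 single values 2973 kept their side, 46 lost and 17 gained a call, 4 given without a test moved, and none reversed. The count for E2+ketamine against ketamine ranged from 1 to 5: it was 3 without E2+ketamine replicate 1 or ketamine replicate 1, 1 without E2+ketamine replicate 2 and 2 without ketamine replicate 2. For E2+(2S,6S)-HNK against (2S,6S)-HNK it ranged from 1 to 3, with 1 when either library of ketamine, (2R,6R)-HNK or E2+(2S,6S)-HNK was left out. For the interaction of E2 and (2R,6R)-HNK it ranged from 2 to 5, with 2 without E2+(2R,6R)-HNK replicate 2. For (2R,6R)-HNK against ketamine it ranged from 3 to 5, with 3 without replicate 2 of either, and for E2+(2R,6R)-HNK against E2+ketamine from 3 to 5, with 3 without E2+ketamine replicate 1.

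DESeq2 gave an adjusted p for 179 single values, of which 173 kept their side and 6 lost a call. Without a filter 186 of 190 kept their side and 4 gained a call, under RLE scaling 188 did, with 1 lost and 1 gained, and under upper-quartile scaling 187 did, with 1 lost and 2 gained. With at least 10 counts in every library 149 of 152 kept their side and 3 gained a call, and PTGS2 and PLA2G4A gave no value. Halved counts, which gave no value for PTGS2, left 167 of 171 in place, with 1 lost and 3 gained, and the fit to the groups compared only left 172 of 175, with 1 lost and 2 gained. Depth limits PTGS2, with 119 counts in all, PLA2G4A with 299 and PTGIR with 399.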
